A study of Mus musculus with 13 samples.

Results

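The genes described here encode the proteins of the mitochondrial ribosome. They were taken as every gene whose symbol is Mrpl or Mrps followed by a number and at most 1 letter, and 71 such genes were measured among the 22180 genes on the arrays. The RefSeq annotation held 78 protein-coding symbols of this form. The remaining 7, Mrpl30, Mrpl33, Mrpl41, Mrpl43, Mrpl44, Mrpl53 and Mrps6, lay only on probe sets shared with another gene and were not used. Of the 71 genes, 45 encode large subunit proteins and 25 small subunit proteins. Mrps36 carries the name but encodes a component of the 2-oxoglutarate dehydrogenase complex in mammals and was kept outside both subunits.

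Transcripts were measured in 13 tumors, each from a different mouse, on Affymetrix Mouse Gene 2.1 ST arrays. All mice were male C57BL/6, bought as young animals, and all tumors were grown under the skin from injected cells of Panc02, 1 mouse pancreatic ductal adenocarcinoma line. In the DIO + HMB group (n = 4) diet-induced obesity (DIO) was established with a high-fat diet and the diet held HMB, β-hydroxy-β-methylbutyrate, a metabolite of leucine. The DIO group (n = 3) had the high-fat diet without HMB, the control + HMB group (n = 3) had a low-fat control diet with HMB, and the control group (n = 3) had the control diet alone. Mice of the study were also injected with gemcitabine or with vehicle. The labels do not say which of these a given mouse received, and the part of this treatment in any difference was not tested.

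The mitochondrial ribosome translates the few messenger RNAs of mitochondrial DNA, which encode core subunits of the respiratory chain and of ATP synthase. Its own proteins are encoded in the nucleus, made in the cytosol and imported. Many descend from bacterial ribosomal proteins, whereas others occur only in mitochondria. Cancer cells that rely on respiration need this ribosome, and its genes are commonly coexpressed.

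Promoter sequence was available for 62 of the 71 genes, as 68 windows from 250 bases before to 50 bases after a RefSeq transcript start (build GRCm38.p6). Nuclear genes for mitochondrial proteins are often controlled by NRF1, by ETS factors such as GABPA and by YY1, and the letters of these motifs were counted on both strands. GCGCA followed by any base and GCGC, for NRF1, occurred in 11 of the 68 windows (16.2%, against 6.38% of the 21262 windows of all protein-coding genes). CCGGAAG, for ETS factors, occurred in 23 windows (33.8%, against 11.6%), and AAGATGGC, for YY1, in 12 (17.6%, against 3.05%). At least 1 of the 3 was present in 38 windows (55.9%, against 18.9%), and none of the 3 letter strings holds another. The E-box CACGTG occurred in 7 windows (10.3%, against 7.84%) and TATAAA in 5 (7.35%, against 12.6%). The median GC content was 58.5% in these windows and 56.3% in all windows. A match is a description of letters, not of binding.

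**Figure D1:**
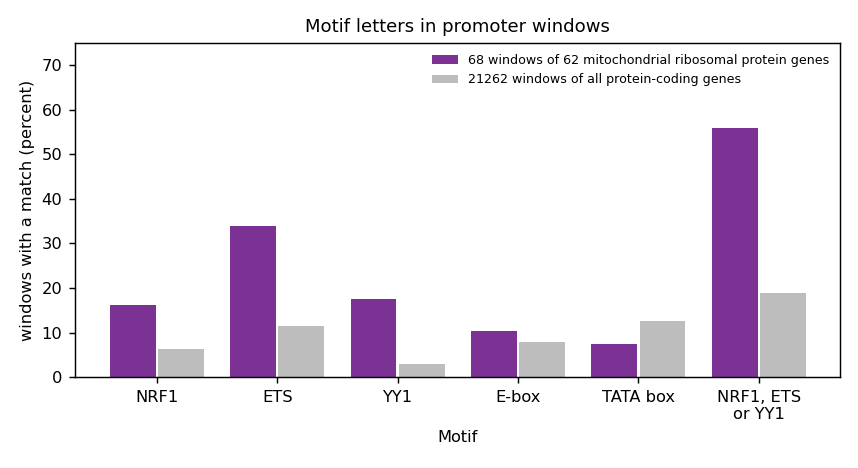
Share of promoter windows, in percent, with at least 1 match to each motif, for 68 windows of the mitochondrial ribosomal protein genes (purple) and 21262 windows of all protein-coding genes (grey). The purple bar is the taller for NRF1, ETS, YY1 and the E-box and the shorter for the TATA box.

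The windows below belong to the 3 genes that were lowest by p against control in DIO + HMB tumors (Mrpl28, Mrpl42, Mrps26) and the 3 that were highest (Mrpl45, Mrpl49, Mrps2). Each is written 5′ to 3′, with matches to the NRF1, ETS and YY1 motifs in capitals.
Mrpl28, chr17:26123253-26123552, plus strand: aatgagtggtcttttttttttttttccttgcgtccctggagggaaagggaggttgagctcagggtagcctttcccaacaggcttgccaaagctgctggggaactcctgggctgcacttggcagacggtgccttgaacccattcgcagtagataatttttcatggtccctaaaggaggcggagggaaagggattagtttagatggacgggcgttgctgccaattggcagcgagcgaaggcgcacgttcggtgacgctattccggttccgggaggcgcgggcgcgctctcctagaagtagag
Mrpl42, chr10:95501900-95502199, minus strand: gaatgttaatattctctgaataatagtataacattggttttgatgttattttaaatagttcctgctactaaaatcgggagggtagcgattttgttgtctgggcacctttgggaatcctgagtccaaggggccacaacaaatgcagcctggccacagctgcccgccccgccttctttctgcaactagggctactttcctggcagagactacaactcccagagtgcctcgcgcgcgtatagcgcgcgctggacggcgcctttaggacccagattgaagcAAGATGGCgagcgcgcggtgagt
Mrps26, chr2:130563507-130563806, plus strand: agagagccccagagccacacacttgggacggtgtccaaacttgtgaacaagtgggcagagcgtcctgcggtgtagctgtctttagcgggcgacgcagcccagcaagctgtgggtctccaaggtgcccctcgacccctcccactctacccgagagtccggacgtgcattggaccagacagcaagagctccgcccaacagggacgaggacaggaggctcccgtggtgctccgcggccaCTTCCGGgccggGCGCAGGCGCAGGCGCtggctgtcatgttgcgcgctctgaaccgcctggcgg
Mrpl45, chr11:97315466-97315765, plus strand: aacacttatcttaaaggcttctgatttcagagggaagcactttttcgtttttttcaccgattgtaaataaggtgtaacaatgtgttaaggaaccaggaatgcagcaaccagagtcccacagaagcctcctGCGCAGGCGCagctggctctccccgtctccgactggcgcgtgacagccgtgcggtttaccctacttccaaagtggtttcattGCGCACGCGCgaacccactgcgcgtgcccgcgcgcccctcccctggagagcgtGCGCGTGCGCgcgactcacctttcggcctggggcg
Mrpl49, chr19:6057706-6058005, minus strand: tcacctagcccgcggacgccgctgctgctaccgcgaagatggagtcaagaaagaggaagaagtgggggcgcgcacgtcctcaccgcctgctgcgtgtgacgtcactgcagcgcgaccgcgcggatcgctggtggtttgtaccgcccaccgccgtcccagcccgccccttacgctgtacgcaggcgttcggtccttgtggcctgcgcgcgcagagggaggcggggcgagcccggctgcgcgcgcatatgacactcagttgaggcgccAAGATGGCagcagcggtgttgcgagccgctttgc
Mrps2, chr2:28467816-28468115, plus strand: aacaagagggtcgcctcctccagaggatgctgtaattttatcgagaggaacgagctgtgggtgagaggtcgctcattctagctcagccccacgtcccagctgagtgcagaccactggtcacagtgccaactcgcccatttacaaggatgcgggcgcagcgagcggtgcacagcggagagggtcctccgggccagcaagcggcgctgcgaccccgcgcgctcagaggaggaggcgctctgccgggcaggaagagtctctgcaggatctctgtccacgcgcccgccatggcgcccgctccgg
Mrpl28 and Mrps2 held none of the 3 motifs, Mrpl42 and Mrpl49 held the YY1 letters, Mrpl45 held the NRF1 letters at 3 places, and Mrps26 held an ETS match beside a pair of overlapping NRF1 matches. Genes with either direction of difference thus included windows with and without these letters.

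The values were log2 signals normalized by the authors with RMA. Any 2 arrays correlated between 0.96 and 0.98 over all 41345 probe sets, and the median gene lay between 4.27 and 4.65 on every array. Krt8 and Krt18, keratins of simple epithelium, averaged 9.18 and 9.54. Other ductal epithelium markers were mixed. Sox9 averaged 9.38, Cdh1 7.67 and Muc1 5.88, whereas Epcam averaged 4.43, Krt19 4.11, Krt7 3.975 and Cldn4 2.73. Single arrays stood apart for other tissues: the 10 B cell genes measured lay 3.76 above their own means on DIO + HMB replicate 1, and the 12 skeletal muscle genes lay 4.10 above on DIO + HMB replicate 3. Of the 71 genes described here, 67 lay at or above the median gene, and the probe sets' means ran between 3.10 (Mrps36) and 9.004 (Mrpl52). Because whole tumors were profiled, fewer cells of a type and less RNA per cell cannot be told apart.

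None of the 71 mitochondrial ribosomal protein genes passed an adjusted p of 0.05 (limma, Benjamini-Hochberg over 22180 genes) in any comparison, so the values that follow are differences that did not pass. The first comparison asked what the high-fat diet did without the supplement. In DIO against control tumors, 0 of 71 passed (0.0% of all genes did), and 37 were higher (53.8% of all genes) and 34 lower (46.2% of all genes). An unadjusted p under 0.05 was reached by 4 higher genes (4.31% of all genes) and 3 lower ones (3.44% of all genes). The median log2 difference was 0.02 over the 71 genes and 0.02 over all genes. Its sign depended on the scaling and on single arrays. It was -0.04 with each array centered on its median and -0.06 with the values quantile normalized again, and it was -0.03 without control replicate 1 (30 higher, 41 lower) and 0.07 without control replicate 3 (43 higher, 28 lower). Most of the 71 genes were not dim, so all genes were also taken with the dim ones, those below the median gene, left out. Then 33 of 67 were higher (61.1% of the remaining genes), with a median of -0.002, beside 0.06 for the remaining genes.

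For HMB on the control diet, the direction that held more of the genes depended on the settings. In control + HMB against control tumors, 0 of 71 passed (0.0% of all genes), 33 were higher (55.4% of all genes) and 38 lower (44.6% of all genes). An unadjusted p under 0.05 was reached by 4 higher genes (7.22% of all genes) and 4 lower ones (4.22% of all genes). The median was -0.01, beside 0.04 for all genes. With the values quantile normalized again, 19 were higher and 52 lower (49.7% and 50.3% of all genes), of which 4 and 11 had an unadjusted p under 0.05 (4.31% and 5.04% of all genes). With centered arrays 22 were higher and 49 lower (35.1% and 64.9% of all genes). With the dim genes left out 30 of 67 were higher (71.2% of the remaining genes), with a median of -0.01, beside 0.13 for the remaining genes. Without control replicate 3 the counts were 46 higher and 25 lower, with a median of 0.07.

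The comparisons that involve DIO + HMB tumors leaned lower, and they share these 4 arrays. For DIO + HMB against DIO tumors, 0 of 71 passed (0.0% of all genes), 27 were higher (47.9% of all genes) and 44 lower (52.1% of all genes). No higher gene had an unadjusted p under 0.05 (3.34% of all genes), and 6 lower ones did (3.75% of all genes). The median was -0.08, beside -0.01 for all genes. Set against control tumors, DIO + HMB tumors had 0 of 71 genes past the threshold (0.0% of all genes), 24 higher (51.2% of all genes) and 47 lower (48.8% of all genes). An unadjusted p under 0.05 was reached by 5 higher genes (8.0% of all genes) and 7 lower ones (6.76% of all genes), and the median was -0.10, beside 0.01 for all genes. Another scaling moved these counts to 1 higher and 18 lower with quantile normalization again (5.4% and 7.71% of all genes) and to 0 higher and 18 lower with centered arrays (2.38% and 16.1% of all genes). Set against control + HMB tumors, they had 0 of 71 past the threshold (0.0% of all genes), 17 higher (44.0% of all genes) and 54 lower (56.0% of all genes). There, 0 higher genes (0.933% of all genes) and 1 lower gene (1.92% of all genes) had an unadjusted p under 0.05, and the median was -0.06, beside -0.02 for all genes. The median of the 71 genes minus that of all genes stayed below 0 under all 22 alternative settings in each of these 3 comparisons. It lay between -0.21 and -0.03 against control tumors. Settings that change only the test, or leave out an array of a group not compared, cannot move this value. Centering the arrays on their medians moved the median of all genes itself, to -0.16 in DIO + HMB against control tumors. Leaving out the dim genes moved it to 0.10 there, beside -0.10 for the members, of which 22 of 67 were higher (65.7% of the remaining genes). Against DIO tumors 25 of 67 were then higher (56.9% of the remaining genes), and against control + HMB tumors 15 of 67 (41.9% of the remaining genes).

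Averaged over both diets, HMB came with 0 of 71 genes past the threshold (0.0% of all genes), 28 higher (52.0% of all genes) and 43 lower (48.0% of all genes). An unadjusted p under 0.05 was reached by 4 higher genes (8.1% of all genes) and 7 lower ones (5.75% of all genes), and the median was -0.05, beside 0.01 for all genes. With quantile normalization again 1 higher gene and 15 lower ones did (5.1% and 6.5% of all genes), and with centered arrays 0 higher and 16 lower (2.14% and 15.4% of all genes). With the dim genes left out 26 of 67 were higher (67.7% of the remaining genes), with a median of -0.05, beside 0.08 for the remaining genes. The interaction of diet and HMB is the HMB difference in DIO tumors minus that on the control diet. It had 0 of 71 past the threshold (0.0% of all genes), with 25 positive (43.4% of all genes) and 46 negative (56.6% of all genes). None of the positive ones (1.63% of all genes) and 2 of the negative ones (3.19% of all genes) had an unadjusted p under 0.05. The F test for any difference among the 4 groups called 0 of 71 (0.0% of all genes), with 6 at an unadjusted p under 0.05 (9.4% of all genes). The plain t statistic named in the methods also called 0 of 71 in each comparison between a pair of groups. The sizes were small: the largest difference of any single gene between groups was -0.78 on the log2 scale (Mrpl28).

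**Figure D2:**
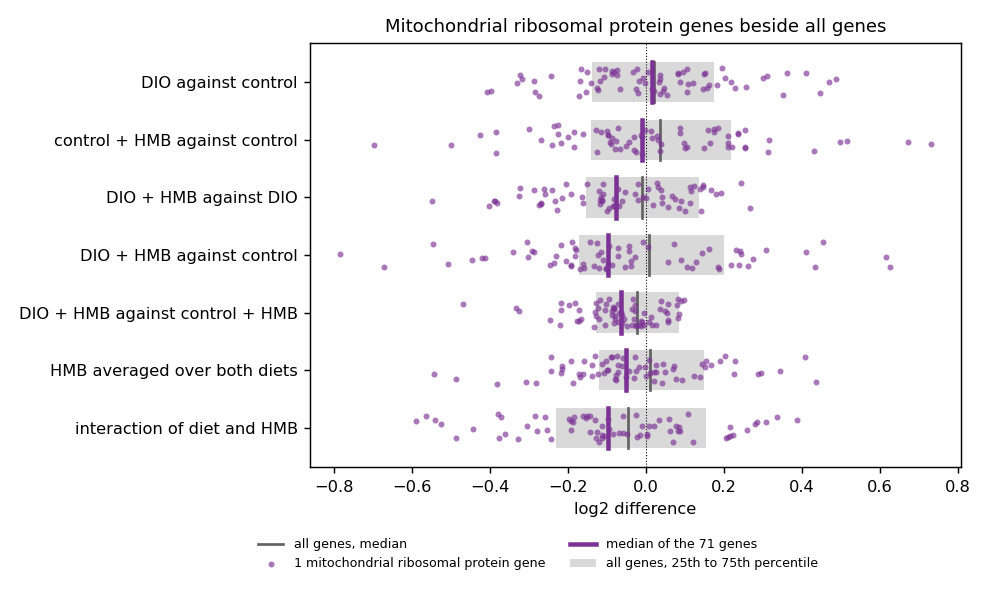
Log2 difference of each of the 71 mitochondrial ribosomal protein genes (points) and their median (purple line) in 7 comparisons, over the 25th to 75th percentile of all 22180 genes (grey bar) and their median (grey line). The purple medians lie between -0.10 and 0.02, inside the grey bar in every comparison.

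In both subunits more genes were lower than higher when all arrays were used. Between DIO + HMB and control tumors the 45 large subunit genes had a median of -0.09 (17 higher, 28 lower) and the 25 small subunit genes one of -0.13 (7 higher, 18 lower). Among genes with a bacterial homolog, 13 of 42 were higher and 29 lower (median -0.11), and among those specific to mitochondria 11 of 28 were higher and 17 lower (median -0.08). Without control replicate 3 the medians were 0.01 for the large subunit (26 higher, 19 lower), -0.07 for the small subunit (8 higher, 17 lower), -0.01 for genes with a bacterial homolog (19 higher, 23 lower) and 0.05 for mitochondria-specific genes (15 higher, 13 lower). Mrps18a and Mrps18b, paralogs of Mrps18c, were counted as mitochondria-specific, and Mrps18c with the bacterial homologs. The difference between these classes was not tested.

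**Figure D3:**
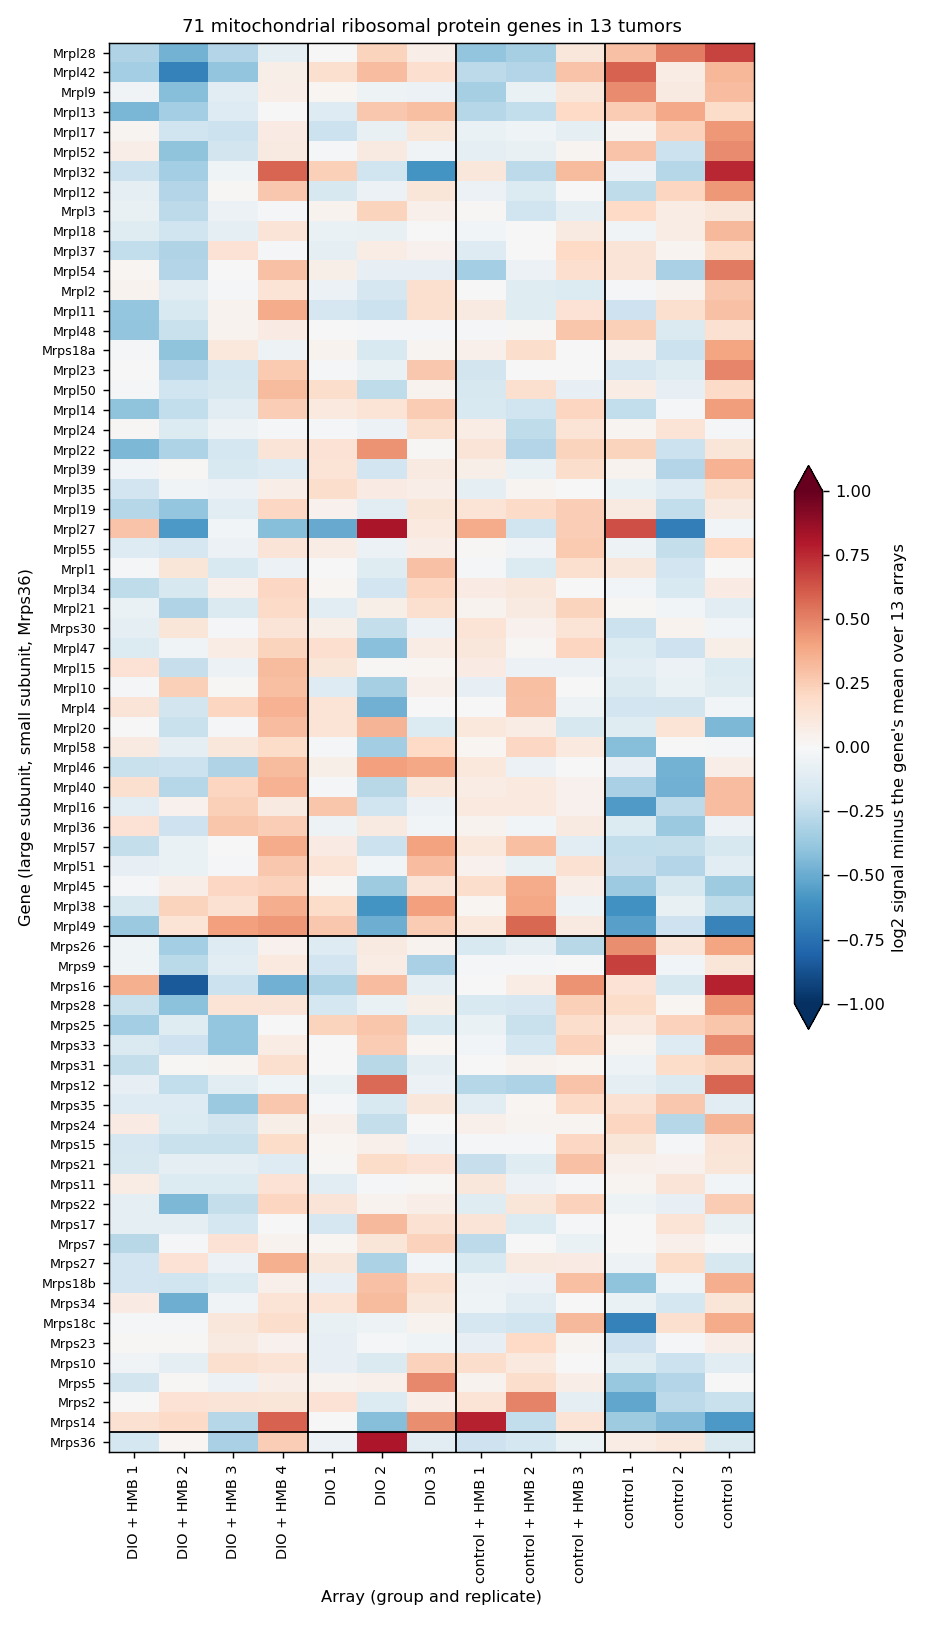
Log2 signal of 71 genes (rows; large subunit, small subunit and Mrps36, each block ordered by the control mean) on 13 arrays (columns), minus the gene's own mean over the arrays (red higher, blue lower). This order puts the rows that are red in control tumors, such as Mrpl28 and Mrps26, at the top of each subunit block. Rows that are blue there, such as Mrpl49 and Mrps2, lie at the bottom.

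Mrpl28, a large subunit protein with a bacterial homolog, had the lowest p of the 71 genes. Its log2 signal was 5.60, 5.42, 5.60 and 5.80 in DIO + HMB tumors, 5.90, 6.12 and 5.96 in DIO tumors, 5.50, 5.57 and 6.01 in control + HMB tumors and 6.19, 6.41 and 6.57 in control tumors. All 3 control tumors lay above all other tumors, and all 4 DIO + HMB tumors lay below all DIO tumors. The difference was -0.78 (SE 0.15, adjusted p = 0.137) in DIO + HMB against control tumors, with a 95% interval from -1.11 to -0.46. It was -0.70 (SE 0.16, adjusted p = 0.271) in control + HMB against control tumors, -0.40 (SE 0.16, adjusted p = 0.623) in DIO against control tumors and -0.39 (SE 0.15, adjusted p = 0.705) in DIO + HMB against DIO tumors. Averaged over both diets, the HMB difference was -0.54 (SE 0.11, adjusted p = 0.213). In DIO + HMB against control tumors the difference stayed negative under all 22 alternative settings, although several of them cannot move it. The lowest adjusted p among them was 0.0796, with the dim genes left out. The highest was 0.989, with the spread of each array, the SD of all genes on it, as a covariate. That spread was at most 2.54 on control arrays and at least 2.57 on the arrays of either HMB group. With this covariate, spread and a difference of an HMB group against control thus cannot be told apart, here or for the genes below.

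Mrpl42, a large subunit protein specific to mitochondria, had a log2 signal of 7.64, 7.30, 7.58 and 8.04 in DIO + HMB tumors, 8.13, 8.29 and 8.14 in DIO tumors, 7.71, 7.68 and 8.26 in control + HMB tumors and 8.57, 8.05 and 8.31 in control tumors. The DIO + HMB tumors lay below every DIO and every control tumor, although replicate 4 by little, and 1 control + HMB tumor lay among the unsupplemented ones. The difference was -0.55 (SE 0.19, adjusted p = 0.705) in DIO + HMB against DIO tumors and -0.67 (SE 0.19, adjusted p = 0.198) in DIO + HMB against control tumors.

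Mrps26, a mitochondria-specific small subunit protein, separated the control tumors from all others. It had 7.42, 7.12, 7.33 and 7.50 in DIO + HMB tumors, 7.33, 7.55 and 7.50 in DIO tumors, 7.31, 7.37 and 7.19 in control + HMB tumors and 7.93, 7.59 and 7.85 in control tumors. The difference was -0.45 (SE 0.13, adjusted p = 0.198) in DIO + HMB, -0.33 (SE 0.14, adjusted p = 0.627) in DIO and -0.50 (SE 0.14, adjusted p = 0.288) in control + HMB tumors, each against the same 3 control tumors. Mrpl13, a large subunit protein with a bacterial homolog, was lower in both HMB groups on average, with 7.22, 7.34, 7.54 and 7.67 in DIO + HMB, 7.55, 7.94 and 7.98 in DIO, 7.39, 7.43 and 7.87 in control + HMB and 7.93, 8.06 and 7.86 in control tumors. Its HMB difference averaged over both diets was -0.38 (SE 0.12, adjusted p = 0.243), and the groups with and without HMB overlapped on either diet. Mrpl9, another large subunit protein with a bacterial homolog, lay between 6.68 and 7.17 in DIO + HMB, between 7.05 and 7.13 in DIO, between 6.77 and 7.22 in control + HMB and between 7.19 and 7.58 in control tumors. Its difference against control was -0.42 in DIO + HMB tumors (SE 0.15, adjusted p = 0.248).

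Other genes of the same ribosome were higher than in control tumors. Mrpl45, which anchors the large subunit to the inner membrane beside the exit of the peptide tunnel, had 6.32, 6.40, 6.54 and 6.57 in DIO + HMB, 6.35, 5.98 and 6.47 in DIO, 6.52, 6.71 and 6.40 in control + HMB and 5.98, 6.18 and 5.99 in control tumors. Every HMB tumor lay above every control tumor, while the DIO tumors overlapped both. The difference was 0.50 (SE 0.15, adjusted p = 0.303) in control + HMB and 0.41 (SE 0.14, adjusted p = 0.232) in DIO + HMB tumors, each against control. With the spread of each array as a covariate these were 0.19 in control + HMB and 0.08 in DIO + HMB tumors, but spread and group cannot be told apart in these comparisons.

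Mrps2, a small subunit protein with a bacterial homolog, had 6.22, 6.36, 6.35 and 6.34 in DIO + HMB, 6.36, 6.08 and 6.28 in DIO, 6.36, 6.72 and 6.12 in control + HMB and 5.70, 5.95 and 5.99 in control tumors. The control tumors were the lowest 3 of the 13. Against them Mrps2 differed by 0.43 in DIO + HMB (SE 0.15, adjusted p = 0.232), 0.36 in DIO (SE 0.16, adjusted p = 0.635) and 0.52 in control + HMB tumors (SE 0.16, adjusted p = 0.303). With array spread as a covariate the differences of Mrps2 were 0.05 in DIO + HMB and 0.16 in control + HMB tumors. Mrpl49, a mitochondria-specific large subunit protein, had the largest positive difference, 0.73 (SE 0.26, adjusted p = 0.343) in control + HMB against control tumors. It ranged widely within groups, with 6.89, 7.40, 7.67 and 7.69 in DIO + HMB, 7.53, 6.77 and 7.52 in DIO, 7.37, 7.84 and 7.35 in control + HMB and 6.72, 7.05 and 6.59 in control tumors. With the same covariate the Mrpl49 difference against control was -0.06 in DIO + HMB tumors, in place of 0.63, and 0.09 in control + HMB tumors.

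**Figure D4:**
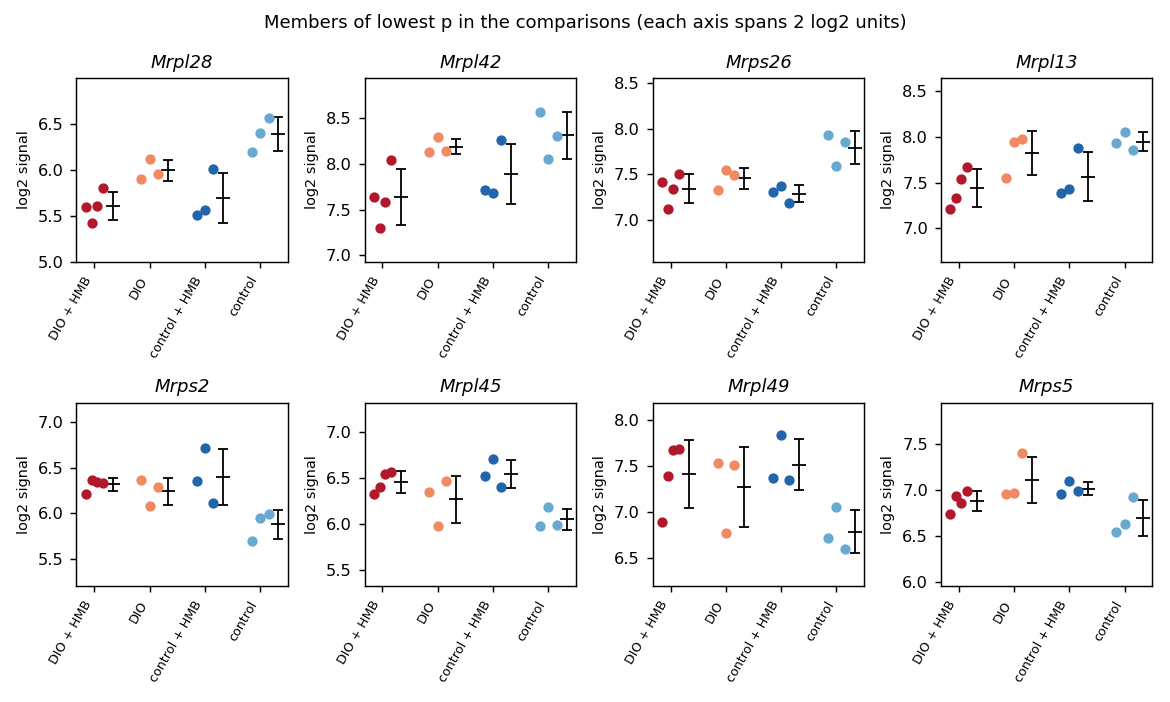
Log2 signal of 8 genes in each tumor (points) with the group's mean ± SD (black), for DIO + HMB, DIO, control + HMB and control tumors, left to right, each axis spanning 2 log2 units. Control tumors are the highest group for Mrpl28, Mrpl42, Mrps26 and Mrpl13 and the lowest for Mrps2, Mrpl45, Mrpl49 and Mrps5.

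Groups that did not overlap were counted as well. Against control, 6 genes lay wholly higher in DIO + HMB tumors (8.35% of all genes did) and 8 wholly lower (6.59% of all genes), the higher ones being Mrpl10, Mrpl45, Mrpl51, Mrps2, Mrps10 and Mrps14 and the lower ones Mrpl3, Mrpl9, Mrpl13, Mrpl28, Mrpl42, Mrps21, Mrps25 and Mrps26. In control + HMB against control tumors 14 lay wholly higher (11.4% of all genes) and 4 wholly lower (6.07% of all genes), the lower ones being Mrpl3, Mrpl17, Mrpl28 and Mrps26. In DIO against control tumors 5 lay wholly higher (6.04% of all genes) and 3 wholly lower (4.95% of all genes). Between DIO + HMB and DIO tumors only Mrps23 lay wholly higher (3.57% of all genes), and Mrpl3, Mrpl28, Mrpl35, Mrpl42 and Mrps21 lay wholly lower (4.22% of all genes). Between DIO + HMB and control + HMB tumors no gene was apart in either direction (1.27% of all genes were wholly higher and 3.07% wholly lower).

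For the high-fat diet alone, Mrps5, a small subunit protein whose bacterial homolog bears on the accuracy of decoding, had the lowest p of the 71 genes, with 6.96, 6.97 and 7.41 in DIO tumors and 6.55, 6.63 and 6.92 in control tumors. The difference was 0.41 (SE 0.15, adjusted p = 0.601), and 0.26 without DIO replicate 3. It had 6.74, 6.94, 6.87 and 6.996 in DIO + HMB and 6.96, 7.10 and 6.99 in control + HMB tumors, and its interaction was -0.54 (SE 0.21, adjusted p = 0.933). Mrpl51, a mitochondria-specific large subunit protein, had 7.14, 6.98 and 7.31 in DIO and 6.78, 6.71 and 6.89 in control tumors, a difference of 0.35 (SE 0.14, adjusted p = 0.622). Mrpl46, specific to mitochondria and in the large subunit, had 5.33, 5.67 and 5.65 in DIO and 5.18, 4.79 and 5.33 in control tumors, a difference of 0.45 (SE 0.19, adjusted p = 0.627) that was 0.29 without control replicate 2. It had 5.04, 5.05, 4.96 and 5.58 in DIO + HMB tumors, of which 1 stood apart, and its interaction was -0.56 (SE 0.26, adjusted p = 0.933). Mrps9, a small subunit protein with a bacterial homolog, differed by -0.41 (SE 0.18, adjusted p = 0.635) in DIO against control tumors, with 6.96, 7.22 and 6.82 in DIO and 7.83, 7.12 and 7.27 in control tumors, where 1 control tumor was far above the others. Without that tumor, replicate 1, the difference was -0.19.

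For diet among supplemented mice, DIO + HMB against control + HMB, the lowest p belonged to Mrpl19, a large subunit protein with a bacterial homolog. It had 6.87, 6.77, 7.06 and 7.36 in DIO + HMB and 7.30, 7.35 and 7.40 in control + HMB tumors, a difference of -0.33 (SE 0.15, adjusted p = 0.9999). One DIO + HMB tumor reached the control + HMB range. Mrps16, of the small subunit, differed by -0.47 (SE 0.28, adjusted p = 0.9999) and varied more, between 5.51 and 6.71 in DIO + HMB and between 6.35 and 6.80 in control + HMB tumors. Without DIO + HMB replicate 2 the Mrps16 difference was -0.29, and under the settings that keep every array it ran between -0.50 and -0.11. A second Mrps16 probe set averaged 5.68, beside 6.35 for the one used, and the 2 correlated at 0.39.

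By role, the stalk that recruits translation factors showed no common direction. Mrpl12, its flexible arm, averaged 6.58 ± 0.23 in DIO + HMB (SD, n = 4), 6.57 ± 0.14 in DIO, 6.54 ± 0.07 in control + HMB and 6.74 ± 0.35 in control tumors (SD, n = 3 each). Its HMB difference averaged over both diets was -0.10, with a 95% interval from -0.37 to 0.18. Mrpl10, the base of the stalk, averaged 8.35 ± 0.16 in DIO + HMB, 8.08 ± 0.19 in DIO, 8.29 ± 0.20 in control + HMB and 8.11 ± 0.04 in control tumors, and its averaged HMB difference was 0.23 (SE 0.10, adjusted p = 0.343). Mrpl11, also at the stalk, had an averaged HMB difference of 0.00 (95% interval -0.30 to 0.29).

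Around the decoding site, Mrps12, the homolog of the bacterial protein in which streptomycin resistance arises, averaged 4.67 ± 0.09 in DIO + HMB, 4.94 ± 0.36 in DIO, 4.68 ± 0.34 in control + HMB and 4.90 ± 0.40 in control tumors. Its averaged HMB difference was -0.24 (SE 0.16, adjusted p = 0.497). In the core of the large subunit, Mrpl3 and Mrpl4 differed in opposite directions. Mrpl3 averaged 7.43 ± 0.11 in DIO + HMB, 7.63 ± 0.11 in DIO, 7.43 ± 0.10 in control + HMB and 7.66 ± 0.07 in control tumors, whereas Mrpl4 averaged 7.17 ± 0.22 in DIO + HMB, 6.93 ± 0.32 in DIO, 7.12 ± 0.19 in control + HMB and 6.91 ± 0.09 in control tumors. Their averaged HMB differences were -0.22 for Mrpl3 (SE 0.08, adjusted p = 0.285) and 0.23 for Mrpl4 (SE 0.12, adjusted p = 0.423). Mrpl58, which releases stalled peptides, had an averaged HMB difference of 0.19 (SE 0.11, adjusted p = 0.453).

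The 3 paralogs Mrps18a, Mrps18b and Mrps18c are related to 1 bacterial protein, but only Mrps18c was counted above as having a bacterial homolog. They differed by -0.17, -0.09 and 0.12 in DIO + HMB against control tumors (adjusted p between 0.635 and 0.834). Mrps36, outside the ribosome, differed by -0.07 (adjusted p = 0.900) in the same comparison and stood at 3.91 on 1 DIO array against 2.77 to 3.34 on the other 12. The genes of largest spread within groups were Mrpl27, Mrpl32, Mrps16 and Mrps14, with residual SDs of 0.52, 0.43, 0.41 and 0.38. The median residual SD was 0.19 over the 71 genes and 0.24 over all genes.

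The mean over the 71 genes of the signal minus each gene's own mean was -0.10, -0.18, -0.05 and 0.14 in DIO + HMB tumors, 0.01, -0.01 and 0.08 in DIO tumors, -0.01, -0.01 and 0.09 in control + HMB tumors and -0.03, -0.07 and 0.14 in control tumors. The DIO + HMB tumors thus included both the lowest and the highest tumor of the series, and each of the other groups lay inside their range. DIO + HMB replicate 2 was the lowest of 13 arrays for 19 of the 71 genes (8.999% of all genes had their lowest value there). Control replicate 3 was the highest for 22 (9.83% of all genes had their highest value there). Without DIO + HMB replicate 2 the median difference against DIO was -0.02 (32 higher, 39 lower), and without DIO + HMB replicate 4 it was -0.14 (19 higher, 52 lower). Without DIO + HMB replicate 1, the array high for B cell genes, the median difference against control was -0.08 (27 higher, 44 lower), and without replicate 3, high for muscle genes, it was -0.08 (25 higher, 46 lower). Without control replicate 3 the median difference in DIO + HMB against control tumors was 0.00 (34 higher, 37 lower).

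The array of the lowest mean also stood apart for other lists. On DIO + HMB replicate 2 the 8 adipocyte genes measured of 9 lay 2.35 above their own means, the 9 endothelial genes 0.66 above and the 23 cell cycle genes measured of 24 by -0.44, the lowest cell cycle value of the 13. The cell cycle mean was -0.26, -0.44, 0.14 and 0.30 in DIO + HMB, 0.20, -0.14 and 0.33 in DIO, 0.08, -0.03 and 0.00 in control + HMB and -0.27, -0.03 and 0.12 in control tumors, so among DIO + HMB tumors the lowest and the highest were the same for it and for the 71 genes. The adipocyte mean ran between -0.96 and 2.35 in DIO + HMB, -1.43 and 0.50 in DIO, -0.29 and 0.64 in control + HMB and -1.60 and 0.81 in control tumors. Their part in the result was not tested. On control replicate 3 the 12 skeletal muscle genes lay 2.14 above their means, and on DIO + HMB replicate 3, where they lay 4.10 above, the mean of the 71 genes was -0.05.

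The 71 genes varied together from tumor to tumor. After the group means were removed, the mean correlation over their 2485 pairs was 0.25, against 0.01 over pairs of all genes. This is a description over 13 arrays, in which the genes share the RNA sample and the array.

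Other lists of related genes were set beside them. The 64 cytosolic ribosomal protein genes had a median of -0.12 for HMB averaged over both diets, with 17 higher and 47 lower. The 70 nuclear genes for respiratory chain and ATP synthase subunits had one of -0.08, with 25 higher and 45 lower, and 14 had an unadjusted p under 0.05 in the lower direction (5.75% of all genes did). That count was 21 with quantile normalization again (6.5% of all genes), 27 with centered arrays (15.4% of all genes) and 2 with array spread as a covariate (2.11% of all genes). No gene of either list passed the adjusted threshold. The mitochondrial ribosomal protein genes, at -0.05, lay between these lists and the median of all genes, 0.01.

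The factors that work with the mitochondrial ribosome leaned the other way. In control + HMB against control tumors, 20 of 21 mitochondrial tRNA synthetase and amidotransferase genes were higher (median 0.21), as were 13 of 15 translation factor genes (median 0.17) and 24 of 28 genes of ribosome assembly and ribosomal RNA modification (median 0.18), where 55.4% of all genes were higher. With the dim genes left out, 71.2% of the remaining genes were higher in that comparison. For HMB averaged over both diets 52.0% of all genes were higher, and 67.7% with the dim genes left out. In the 3 lists the counts were then 16 of 21, 14 of 15 and 23 of 28, with medians of 0.13, 0.06 and 0.14. None of these genes passed the adjusted threshold. Sars2 and Iars2, which charge serine and isoleucine tRNAs, had averaged HMB differences of 0.43 (SE 0.11, adjusted p = 0.241) and 0.47 (SE 0.13, adjusted p = 0.241) and were chosen after their values were seen. These directions depended on the scaling. With the values quantile normalized again, 13 of 21, 10 of 15 and 17 of 28 were higher in control + HMB tumors (49.7% of all genes). With the spread of each array as a covariate the counts were 10 of 21, 8 of 15 and 15 of 28 (52.4% of all genes). That spread, the SD of all genes on an array, averaged 2.60 ± 0.02 in DIO + HMB, 2.56 ± 0.04 in DIO, 2.60 ± 0.02 in control + HMB and 2.52 ± 0.02 in control tumors (SD, n = 4 for DIO + HMB and n = 3 for the others), so it moved with these lists, and its part in them was not tested.

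**Figure D5:**
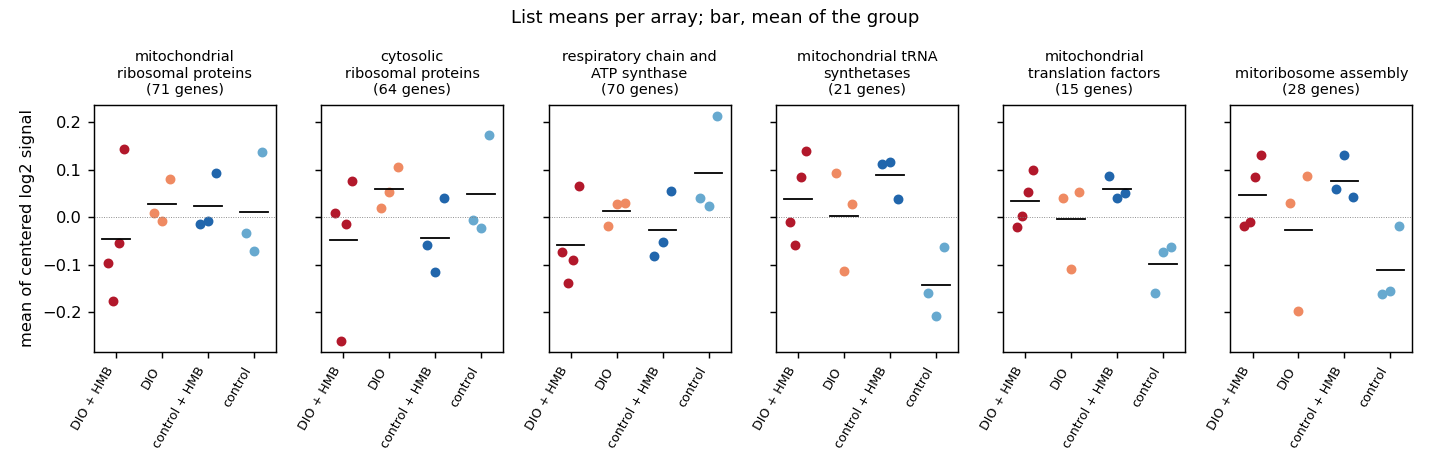
Mean over a list of the log2 signal minus each gene's mean over 13 arrays, for each tumor (points) and group (bar), in 6 lists. The mitochondrial ribosomal protein groups overlap, whereas the control tumors lie lowest on average for the tRNA synthetases (-0.14), the translation factors (-0.10) and ribosome assembly (-0.11).

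Mitochondrial ribosomal proteins under other names were few: 3 of 6 were measured. Ptcd3, a small subunit protein that binds RNA, had 8.70, 7.35, 6.96 and 7.63 in DIO + HMB, 7.78, 9.76 and 8.99 in DIO, 7.90, 7.24 and 8.70 in control + HMB and 9.20, 9.71 and 8.91 in control tumors. All 7 HMB tumors lay below all 3 control tumors, while the DIO tumors spanned both. The HMB difference averaged over both diets was -1.25 (SE 0.36, adjusted p = 0.241), larger than that of any of the 71 genes. Dap3 lay between 6.34 and 6.75 in DIO + HMB, 6.46 and 6.89 in DIO, 6.56 and 6.71 in control + HMB and 6.57 and 6.75 in control tumors, and Gadd45gip1 between 4.70 and 5.22 on all arrays.

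The intervals give the precision. The 95% interval of the difference lay within 1 log2 unit of 0 for 69 of the 71 genes in DIO against control, 68 in control + HMB against control, 70 in DIO + HMB against DIO, 66 in DIO + HMB against control and 71 for HMB averaged over both diets. It lay within 0.5 log2 units for 34, 31, 45, 29 and 54 genes in the same order. In DIO + HMB against control + HMB it lay within 1 unit for 69 genes and within 0.5 for 54. The interaction was the least precise, with 64 genes within 1 unit and only 9 within 0.5. For 9 genes a second probe set was present, and its correlation with the one used ran between -0.35 (Mrpl36) and 0.40 (Mrpl12) over 13 arrays, so the measured differences of these genes rest on 1 probe set.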

How the data were processed

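Each of 13 tumors was profiled on 1 Affymetrix array. The deposited values are log2 signals that the authors made with RMA, which corrects background, quantile normalizes the arrays and summarizes probe sets. RMA, affy and limma are the tools in the submitters' processing notes. Tool versions and a genome build for the array: not given in the sources used here. Of 41345 probe sets, 23521 carried 1 gene symbol, and for each of 22180 genes the probe set of highest mean over 13 arrays was used. All 71 members matched RefSeq by Entrez identifier, and RefSeq promoter windows (GRCm38.p6) were matched by symbol.

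All arrays were fitted together by limma 3.58.1 in R 4.3.3 as 4 group means, which left 9 residual degrees of freedom. Tests were two-sided, with Benjamini-Hochberg adjustment over all genes and a threshold of 0.05. Lists were described by counts and medians, with no test. Figures and tables were made in Python 3.11.15. The model was tested on simulated data. The number of arrays limits the precision.

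Genes were named if they passed the threshold (none did), were among the 3 of lowest p in a direction of a comparison, among the 4 of largest residual SD, or held a chosen role, which gave 33 genes. Genes whose groups did not overlap were named in addition, after their values were seen. The members and lists were chosen with earlier results of these data known. The alternatives were the mean of all probe sets, dim genes left out, arrays centered on their median, quantile normalization again, array spread as a covariate, only the groups compared, the methods' t statistic, eBayes with trend and robust, the replicate number as a block, and leaving out each array.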

Additional observations from a re-analysis of the deposited data

Results flagged for a closer look

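Among 34 sets of values from the DIO + HMB group, the only group of 4 tumors, 1 had a tumor far from the others. Mrpl46 had 5.04, 5.05, 4.96 and 5.58, and the gap between the highest tumor and the next was 0.855 of the group's whole range. Chance gives such a gap in about 1 of 20 groups. Without that tumor, replicate 4, the median difference of the 71 genes in DIO + HMB against DIO tumors was -0.14, and 0 of them passed the threshold.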

How the results depend on the processing

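No mitochondrial ribosomal protein gene passed under any of the 22 alternatives. For the 42 differences of single genes chosen by lowest p, 4 of 900 alternative values had the other sign. With array spread as a covariate, 10 of the 42 also shrank by over 1.5 times. Array spread did not overlap between control tumors and those of either HMB group, so this setting cannot tell spread from group in comparisons between them. For the members' medians 10 of 150 values had the other sign, 7 in DIO against control (range -0.06 to 0.07) and 3 in control + HMB against control (-0.15 to 0.07). Settings that changed only the test, or left out an array of a group not compared, could not move these differences or medians. Both totals, 900 and 150, include such values. Genes called among all genes in control + HMB against control numbered 1 with dim genes left out and 2 with trend and robust eBayes, and 0 to 1 when an array was left out. When an array was left out, DIO + HMB tumors had 0 to 1 such genes against DIO and 0 to 3 against control, the 3 without control replicate 3. With arrays centered on their median, the members' median log2 difference was -0.15 for control + HMB against control tumors, where quantile normalization again gave -0.14. Centering gave -0.19 for DIO + HMB against DIO tumors, -0.27 for them against control tumors and -0.18 for HMB averaged over both diets. The direction reversed for Mrpl4 in DIO + HMB against DIO (-0.02) and for Mrpl49 in DIO + HMB against control (-0.0641) and for HMB averaged over both diets (-0.0682) with array spread as a covariate, and for Mrpl36 in DIO + HMB against control + HMB (-0.0143) with all probe sets averaged. The cause was not tested. Same-numbered tumors of different groups showed no common deviation (r between -0.19 and 0.30 over 18 pairs, 3 above 0.1). The median r was -0.01 for these pairs and -0.01 for the others. The tumors were treated as unpaired, although groups of this size cannot show a weak pairing. With the replicate block, which leaves DIO + HMB replicate 4 without a partner, the members' medians were -0.14 in DIO + HMB against DIO, -0.14 against control and -0.11 against control + HMB, and no gene passed. The number of arrays and the dim signals of a few genes limit these results.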
